A study of Caenorhabditis elegans with 4 samples.

Results

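Chromosome IV of Caenorhabditis elegans carried 372 of the 1828 binding sites of ZTF-4 in the combined list of the study. All sites listed on chromosome IV were taken, whatever their strength. The list of ChIP replicate 1 held 142 sites on IV among its 744, and that of ChIP replicate 2 held 156 among its 813. The other 5 chromosomes held 1456 combined, 602 replicate 1 and 657 replicate 2 sites.

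The series has 4 samples of hermaphrodite larvae at the L2 stage, 2 of ChIP DNA and 2 of input DNA. All came from strain OP322, which carries unc-119(ed3) and the transgene wgIs322, a ztf-4 copy with a TY1, EGFP and FLAG tag beside an unc-119 rescue gene. The transgene was introduced by biolistic transformation and the strain was not outcrossed, so every sample is of 1 strain and holds the tagged copy. Worms were grown at 20 degrees Celsius, fixed whole with 2% formaldehyde and sonicated, and tagged protein was collected with a goat antibody against EGFP. Whole larvae mix all tissues, and a site in few cells and weak binding in many cells cannot be told apart here. Nothing in the labels says that the replicates were separate cultures, so the difference between them may be technical.

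ZTF-4 belongs to the zinc finger proteins, which hold DNA through small folds built around a zinc ion. Chromatin immunoprecipitation and sequencing recovers DNA bound by a tagged factor, and a caller such as PeakSeq lists stretches where ChIP reads exceed those of input DNA. Worm autosomes have gene-rich centres with little recombination, and arms with more repeats and more recombination. Chromosome IV is also known for a pair of broad clusters of genes for 21U-RNAs, the small RNAs that guide the Piwi protein PRG-1 in the germ line.

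Each site has a start, an end and the authors' q-value, the error rate PeakSeq gave after correction for multiple tests. The strength of a site is written below as q or as −log10 q, which is larger for stronger evidence. Because q depends on read depth, and the depth is unknown, strength was tested between chromosomes within a list only. Values of different lists are set side by side as a description, and a lower q in one list is not shown to be more binding. Positions are 1-based on WormBase release WS180. No annotation or genome of that release was used, so the sites carry no gene names and no sequence.

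On IV the combined sites ran from 208375 to 17470539 and covered 312500 bp, or 1.79% of the span up to the last site. Their density was 21.3 sites per Mb, against 17.6 per Mb on the other chromosomes together, 23.7 on I and 27.2 on III. The replicate lists gave 8.13 and 8.93 sites per Mb on IV, against 7.29 and 7.96 on the other chromosomes. The median IV site was 600 bp wide in the combined list, with a range of 2 to 6628 bp, against a median of 646.5 bp elsewhere. Wider sites tended to be stronger, with a Spearman rho of 0.55 between width and −log10 q over the 372 sites. The points share the same libraries, and the value was 0.63 over the 1456 other sites.

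The strongest site on IV lay from 3644567 to 3648312. It had a combined q of 2.94e-215, with 8.46e-118 for replicate 1 and 7.36e-111 for replicate 2, and it ranked 2 of the whole combined list. Both replicates bounded it closely, from 3644610 to 3648073 in replicate 1 and from 3644581 to 3648047 in replicate 2. It stood far above the next sites of IV in every list.

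The second site, from 17276819 to 17281833, lay at 98.9% of the span, close to the right end. Its q was 2.87e-115 in the combined list and 1.71e-54 in replicate 2, where it was a single stretch of 4640 bp. Replicate 1 divided the same stretch into a site from 17277162 to 17279202 with q = 2.97e-26 and a site from 17279453 to 17281781 with q = 1.4e-30. Both pieces lie under 1 combined site and counted as 1 locus.

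The third site, from 4467839 to 4474466, was the widest of IV at 6628 bp, with q = 3.57e-108. Replicate 1 listed 2 sites beneath it, the stronger with q = 4.98e-35, and replicate 2 listed 3, the strongest with q = 1.23e-35. The stronger pieces matched in both replicates, and the weaker pieces were far above them in q.

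Of the remaining 7 among the 10 strongest, 10932995 to 10937259 had a combined q of 1.41e-77, with 2.49e-26 for replicate 1 and 1.87e-40 for replicate 2. The site from 8431011 to 8433217 had q = 3.01e-74, with 1.98e-34 in replicate 1 and 1.4e-32 in replicate 2. The site from 11954268 to 11957643 had q = 2.79e-67, with 1.69e-35 and 8.13e-32 in the replicates. At these 3 sites neither replicate was the stronger throughout.

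A further 3 had lower q in replicate 2 than in replicate 1. From 13081549 to 13083754 the values were 6.61e-66 combined, 2.63e-27 in replicate 1 and 1.11e-38 in replicate 2. From 2601841 to 2604959 they were 1.29e-60, 4.32e-25 and 2.71e-33 in the same order of lists. From 14032512 to 14034706 they were 9.32e-58, 1.7e-27 and 1.13e-33.

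The tenth, from 2768203 to 2773752, was weak in both replicates. Its combined q was 7.78e-50 over 5550 bp, while its best replicate sites had q = 1.84e-07 in replicate 1 and 1.47e-10 in replicate 2. Beneath it lay 3 short sites of replicate 1 and 2 of replicate 2, none wider than 1582 bp. All 10 strongest combined sites of IV overlapped sites of both replicates. The 10 strongest replicate 1 sites of IV each overlapped one of the 10 strongest of replicate 2.

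**Figure D1:**
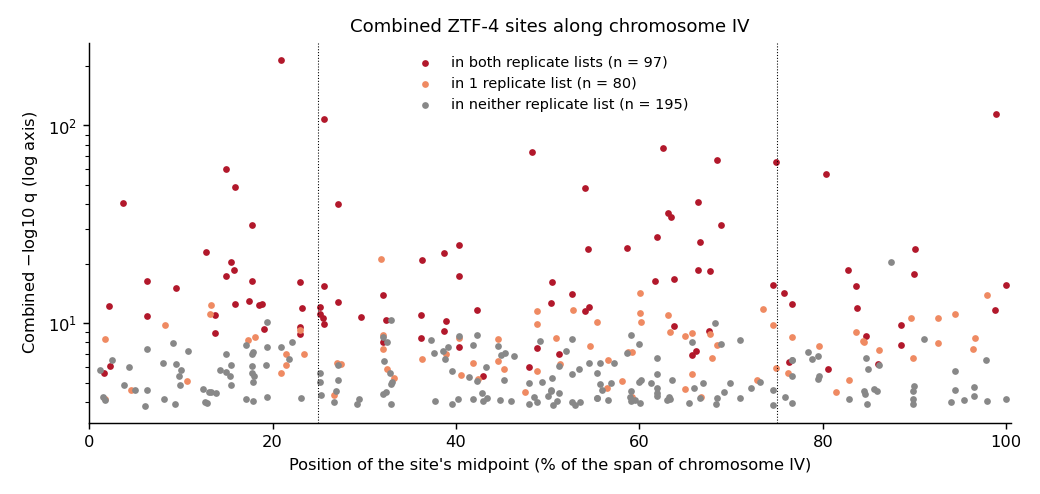
Each point is a combined ZTF-4 site of chromosome IV, at its midpoint in percent of the span and its −log10 q on a log axis, coloured by the replicate lists that hold it, with dotted lines at 25 and 75%. The 9 sites above 50 were all found in both replicate lists, and the sites in neither list lie along the bottom except 1 at 20.3.

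The replicate lists show how much of the combined list each ChIP sample held by itself. Of the 372 combined sites on IV, 97 overlapped a site in both replicate lists by at least 1 bp, or 26.1% (95% Wilson interval 21.9 to 30.8%), where the share over all combined sites was 28.8%. Another 29 overlapped replicate 1 alone, or 7.8%, where the share over all combined sites was 7.3%. Replicate 2 alone was overlapped by 51, or 13.7%, where that share was 11.5%. The remaining 195, or 52.4%, were in neither list, and over all combined sites that share was also 52.4%. On the other chromosomes 430 of 1456 sites, or 29.5%, were in both lists. The difference of -3.46 percentage points (95% interval -8.29 to 1.76) did not pass Fisher's exact test (two-sided, adjusted p = 0.24 over 6 tests).

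Support on IV followed strength, but combined q and replicate support come from the same ChIP samples and are not independent measures. None of the 108 IV sites with −log10 q under 5 was in both lists, and 99 were in neither. From 5 to 10, 25 of 174 were in both, and from 10 to 20, 44 of 60. From 20 to 50, 19 of 21 were in both, and so were all 9 sites at 50 or more. In the same order of bands, the other chromosomes had 4 of 415, 68 of 594, 175 of 261, 136 of 139 and 47 of 47. Among sites with q under 1e-10, 80.0% on IV and 80.1% elsewhere were in both lists (difference -0.0895 points, Fisher's exact test, adjusted p = 1). Sites of IV in both lists had a median width of 967 bp and a median −log10 q of 13.9, against 501 bp and 4.99 for those in neither.

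**Figure D2:**
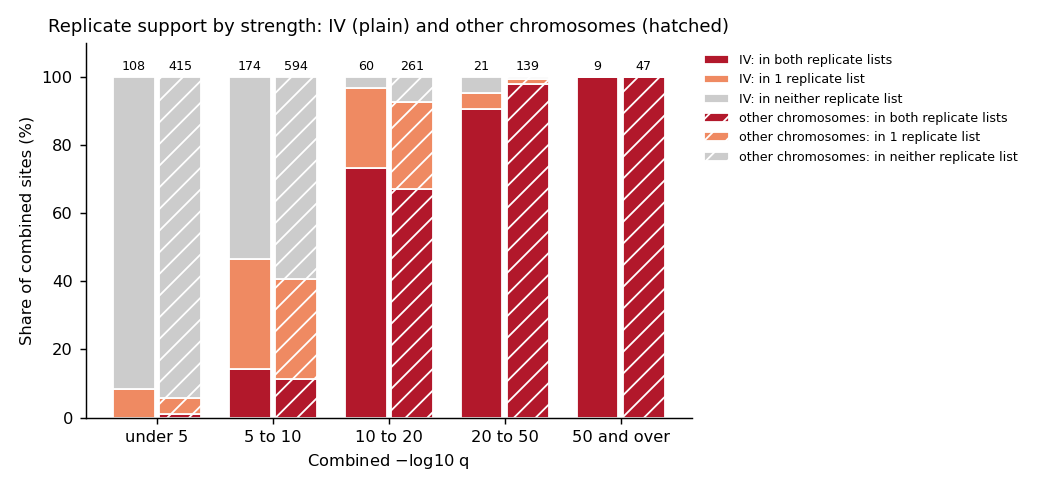
Bars give the share of combined sites in both, in 1 or in neither replicate list, by bands of combined −log10 q, for IV (plain, left of each pair) and the other chromosomes (hatched), with the number of sites above each bar. In both groups the part found in both lists grows with strength, from 0 of 108 on IV in the weakest band to 9 of 9 in the strongest. Strength and support come from the same ChIP samples.

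The strongest combined site with no replicate site beneath it, on any chromosome, was on IV, but a site on II was nearly as strong. That site of II, from 9933519 to 9937345, had q = 7.29e-21 over 3827 bp. The site of IV lay from 15271902 to 15274453, was 2552 bp wide and had q = 5.37e-21, rank 30 on IV. The nearest site of replicate 1 was 196969 bp away and the nearest of replicate 2 was 196968 bp away. Next on IV were 5753145 to 5754584 with q = 4.12e-11, 3384551 to 3385677 with 6.87e-11, 11913278 to 11913995 with 1.03e-10 and 7396880 to 7398176 with 1.78e-09. For these 4 the nearest replicate site was between 3613 and 50617 bp away, so none was a site missed by a few bases.

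Between the replicates, 104 of the 142 replicate 1 sites on IV overlapped a replicate 2 site, or 73.2%, where the share over all replicate 1 sites was 79%. The other chromosomes had 80.4% (difference -7.16 points, 95% interval -15.5 to 0.246, Fisher's exact test, adjusted p = 0.133). Of the 156 replicate 2 sites on IV, 104 overlapped a replicate 1 site, or 66.7%, where the share over all replicate 2 sites was 71.5%. The other chromosomes had 72.6% (difference -5.94 points, 95% interval -14.3 to 1.83, Fisher's exact test, adjusted p = 0.211). Both intervals include 0. Among sites with q under 1e-05 the replicate 1 share was 80.0% on IV and 90.6% elsewhere, and that difference passed (Fisher's exact test, adjusted p = 0.0353). It was 1 of 41 alternatives, and no alternative, here or below, was corrected for their number. At the same limit the replicate 2 share was 79.4% and 84.7%, which did not pass (adjusted p = 0.272 by the same exact test). With q under 1e-10 the replicate 1 share was 96.6% and 100%, which did not pass either. With all sites, but those within 20 kb counted once, the replicate 1 shares were 83.3% on IV and 84.8% elsewhere (Fisher's exact test, adjusted p = 0.739). With midpoints within 100 bp they were 44.4% and 46.3% (adjusted p = 0.709 by the same exact test).

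The 298 replicate sites of IV formed 190 loci, of which 100 had a site in both replicates, 38 in replicate 1 alone and 52 in replicate 2 alone. Some loci of 1 replicate alone lie under a combined site that both replicates overlap. Examples are 2603617 to 2604777 for replicate 1 and 12033847 to 12035900 for replicate 2. Every one of the 100 shared loci had a combined site. At these loci the midpoints of the strongest sites lay a median of 54 bp apart, and 63 pairs lay within 100 bp. The median −log10 q was 6.52 in replicate 1 and 6.75 in replicate 2, with 39 loci higher in replicate 1 and 60 in replicate 2. Across the loci, which share the same 2 libraries, Spearman's rho was 0.74 and Pearson's r was 0.95, and without the 5 strongest loci they were 0.70 and 0.91.

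**Figure D3:**
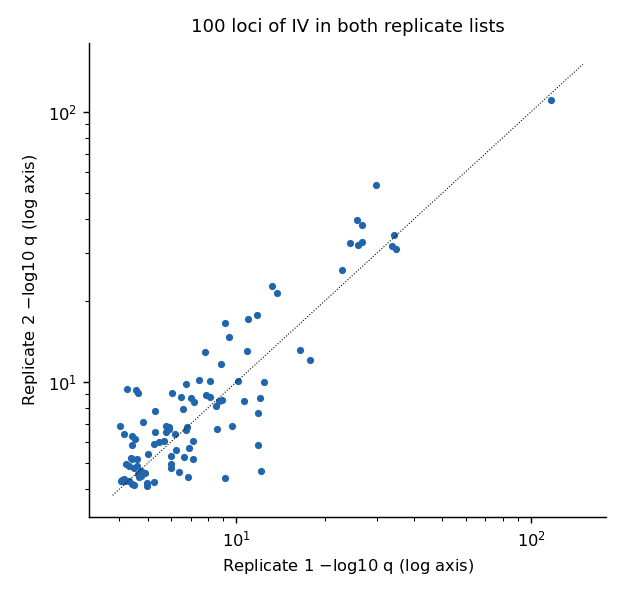
Each of the 100 points is a locus of IV with a site in both replicate lists, placed by the −log10 q of its strongest site in replicate 1 (x) and replicate 2 (y), both on log axes, and the dotted line marks equal values. The locus at 117 and 110 stands alone at the top right, and most loci lie under 10 in both.

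Some loci were far from equal by the strongest site of each replicate. From 17277162 to 17281815 the strongest site reached a −log10 q of 29.9 for replicate 1 and 53.8 for replicate 2, and from 10933054 to 10937259 the values were 25.6 and 39.7. In both places replicate 1 had 2 sites and replicate 2 had 1. The replicate 1 sites had 25.5 and 29.9 in the first place, and 17.8 and 25.6 in the second. Only the stronger was set against the undivided replicate 2 site, so these gaps do not count all of replicate 1. The next toward replicate 2 were 13081142 to 13083755 with 26.6 in replicate 1 and 38.0 in replicate 2, 9438360 to 9441535 with 13.2 and 22.7, and 2601841 to 2603521 with 24.4 and 32.6.

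The widest gap toward replicate 1 was at 3232687 to 3234597, with a −log10 q of 12.1 for replicate 1 and 4.69 for replicate 2. The strongest locus, from 3644581 to 3648073, followed with 117 and 110. The others were 9510385 to 9511777 with 11.8 and 5.83, 3110883 to 3112063 with 17.8 and 12.1, and 11080511 to 11081605 with 9.15 and 4.42. At 9510385 replicate 2 had 2 sites, and only the stronger is given.

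At 97 of the 100 shared loci the combined site was stronger than either replicate site. Its −log10 q had a median of 14.1, and the sum of the strongest value of each replicate had a median of 13.3. Such a sum is a yardstick only and is not itself the −log10 q of any test. Taken locus by locus, the combined value exceeded that sum at 47 of the 100, and the median of combined minus sum was -0.162. The excess over the sum was largest from 4467933 to 4474442, where the combined value was 107 and the sum 69.2. The −log10 q values of all 5 replicate sites beneath that combined site added up to 100.98. Another large excess was from 2769269 to 2770030, with 49.1 against a sum of 11.4, under a combined site 5550 bp wide that also spans other replicate sites, and all of them together added up to 32.9. The largest shortfall was from 654725 to 655239, with 40.6 combined and a sum of 58.1. Here the site was narrow, 515 bp in replicate 1 and 463 bp in replicate 2, with q = 1.24e-26 and 5.99e-33.

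Few replicate sites of IV were missing from the combined list. All 156 replicate 2 sites overlapped a combined site, where the share over all chromosomes was 97.8%, and 137 of 142 replicate 1 sites did (96.5%), where that share was 96.2%. The 5 absent were 3113438 to 3113824 with q = 8.71e-06, 9509131 to 9509949 with 9.64e-06, 1549754 to 1550508 and 8927061 to 8927536 with 7.1e-05 each, and 9200406 to 9200882 with 9.32e-05. None of the 5 had a replicate 2 partner, and the strongest ranked 87 of 142 in its list. Combined sites began 231, 303 and 197 bp away from the first, second and last of these, and 45310 and 5505 bp away from the other 2.

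Sites of high strength made up a smaller part of IV than of the other chromosomes in each list, although the test passed only in replicate 2. In the combined list 90 of 372 IV sites had q under 1e-10, or 24.2% (95% interval 20.1 to 28.8%), against 447 of 1456, or 30.7%, elsewhere, and 29.4% over all sites. The difference was -6.51 points (95% interval -11.2 to -1.36, Fisher's exact test, p = 0.0153, adjusted p = 0.0698). In replicate 1 the shares were 20.4% on IV and 30.4% elsewhere (29 of 142 and 183 of 602, adjusted p = 0.0698 by the same exact test), with 28.5% over all sites. In replicate 2 they were 16.7% on IV and 30.4% elsewhere (26 of 156 and 200 of 657, difference -13.8 points, 95% interval -20.0 to -6.32, Fisher's exact test, adjusted p = 0.00282), with 27.8% over all sites. IV had the lowest share of the 6 chromosomes in each of the 3 lists. The combined list comes from the same ChIP samples as the replicate lists, so the 3 are not independent.

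Sites near each other are not independent, so these p-values are too small to an unknown degree. With sites within 20 kb counted once, the share of groups with such a site was 39.3% on IV and 42.9% elsewhere for combined sites (Fisher's exact test, adjusted p = 0.476). In replicate 2 it was 24.7% and 38.4% (Fisher's exact test, p = 0.0131, adjusted p = 0.0698), which no longer passed. The replicate 2 difference was -13.6 points (interval -22.6 to -3.12), close to the -13.8 points without grouping. In replicate 1 the shares were 26.2% and 38.2% (difference -12.0 points, interval -21.7 to -0.657, adjusted p = 0.131 by the same exact test). The combined difference shrank from -6.51 to -3.61 points (interval -11.4 to 4.56).

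**Figure D4:**
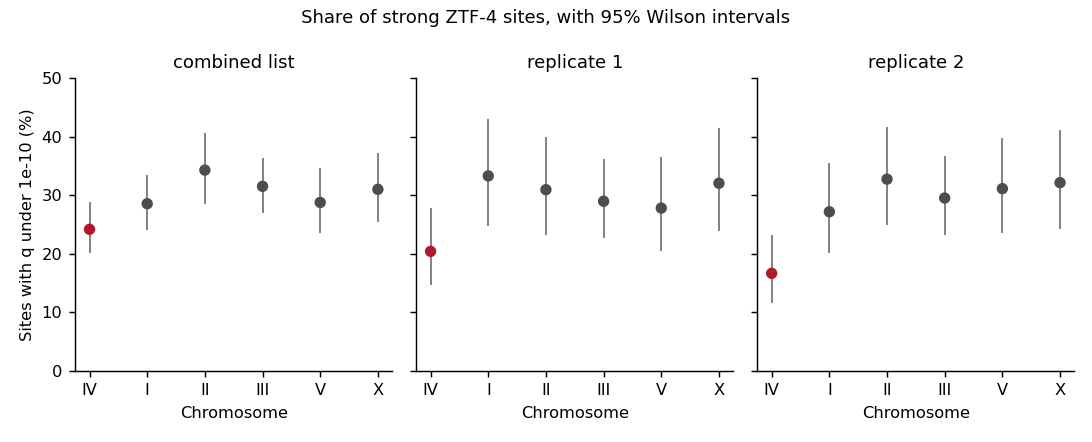
Points give the share of sites with q under 1e-10 on each chromosome, IV first in red, in the combined list, replicate 1 and replicate 2, with 95% Wilson intervals that treat sites as independent. The IV point is the lowest in each panel, at 24.2, 20.4 and 16.7%, and its interval overlaps those of all others in the first 2 panels but lies under those of II, V and X in the replicate 2 panel.

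Along the chromosome, 215 of the 372 combined sites lay in the centre, from 25 to 75% of the span, or 57.8%. The other 4 autosomes together had 64.5%, and all 5 had 62.9%. Chromosome I, with 58.3%, was close to IV. The difference of -6.67 points (95% interval -12.4 to -1.05) did not pass after adjustment (Fisher's exact test, p = 0.0233, adjusted p = 0.0698). It passed in replicate 1, with 53.5% on IV and 65.9% on the other 4 autosomes (Fisher's exact test, p = 0.00776, adjusted p = 0.0458). That p was not corrected for the number of alternatives tried. The difference missed in replicate 2, with 60.3% and 66.97% (adjusted p = 0.211 by the same exact test). With sites within 20 kb counted once it passed in no list, with 57.3% on IV and 61.4% on the other 4 for combined sites (Fisher's exact test, adjusted p = 0.402) and 53.6% and 64.5% in replicate 1 (adjusted p = 0.15). The outer parts of IV were unequal, with 20.4 combined sites per Mb in the left one, 24.6 in the centre and 15.6 in the right one. Replicate 1 had 9.16, 8.70 and 5.95 per Mb in these parts, and replicate 2 had 8.01, 10.8 and 6.18, so the right part was the sparsest in every list.

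By 1 Mb bins, the 17 full bins of IV held 10 to 34 combined sites, with a median of 22. The densest, from 11000001 to 12000000, had 34 combined, 16 replicate 1 and 20 replicate 2 sites. Next were 7000001 to 8000000 and 8000001 to 9000000 with 28 combined sites each, but only 8 and 9 in replicate 1 and 9 and 10 in replicate 2. The sparsest bin, from 12000001 to 13000000, directly followed the densest and held 10 combined sites, 1 of replicate 1 and 4 of replicate 2. Then came 16000001 to 17000000 with 11 combined sites, none of them in both lists, and 1 to 1000000 with 14. The bin from 4000001 to 5000000 had 25 combined sites, of which 12 were in both lists, as many as in the densest bin.

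The longest stretch of IV with no combined site ran from 5805986 to 6321693, or 515708 bp. In replicate 1 the longest was 998685 bp, from 12037313 to 13035997, and in replicate 2 it was 928250 bp, from 16171003 to 17099252. A stretch without sites is only one with none past the q limit.

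The places known for 21U-RNA genes held fewer sites per length. Windows from 4500001 to 7000000 and from 13500001 to 17000000 were used, rounded because the known places are given on other releases. Inside them were 97 combined sites, or 16.2 per Mb, against 275, or 24.0 per Mb, on the rest of IV. Replicate 1 had 5.67 per Mb inside and 9.42 outside, and replicate 2 had 6.5 and 10.2. The windows also take in most of the sparse right part of the chromosome, and the part of that position in the difference was not tested. The first window alone, toward the left, had 18.4 combined sites per Mb and the second 14.6. Of the combined sites inside, 23.7% were in both replicate lists, and of those outside, 26.9%. These differences are given without a test.

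No difference in neighbouring sites between IV and the other chromosomes passed over all combined sites. A neighbour within 2 kb was present at 155 of 372 combined sites on IV, or 41.7%, against 39.7% on the other chromosomes and 40.1% over all (difference 1.97 points, 95% interval -3.55 to 7.61, Fisher's exact test, adjusted p = 0.515). Among sites with q under 1e-10 the direction turned, with 16.7% of 90 on IV and 31.1% of 447 elsewhere (Fisher's exact test, adjusted p = 0.0298). In the replicate lists that last comparison gave 31.0% on IV and 24.6% elsewhere in replicate 1, and 7.69% and 23.5% in replicate 2, and it passed in neither.

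With gaps under 20 kb, the 372 sites formed 178 groups, and 96 were single sites. The largest, from 3106726 to 3135453, had 9 combined sites, of which 7 were in neither replicate list. Groups of 7 lay from 15693028 to 15723050, from 10481593 to 10522060 and from 5589651 to 5610830, with 2, 0 and 2 sites found in both lists. A group of 6 lay from 10810783 to 10826333, where 1 site with q = 6.86e-28 stood among sites of which 5 were in neither list.

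The narrowest combined sites of IV were 2 bp at 10320538 to 10320539, 30 bp at 15011363, 48 bp at 5098239 and 54 bp at 10330454, all in neither replicate list, and 118 bp at 4728005, in replicate 1 only. Their q ran from 5.35e-07 to 0.000124. The widest after the site at 4467839 were those at 2768203, 17276819, 9438219 (4466 bp, q = 7.73e-49) and 10932995, all in both lists. Only the site at 9438219 of these was not among the 10 strongest. The first site of IV, from 208375 to 208604, was in neither list with q = 1.53e-06, and the last, from 17469477 to 17470539, was in both with q = 2.35e-16.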

How the data were processed

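ChIP-seq site lists of the ZTF-4 L2 samples were analysed. The authors deposited, per ChIP replicate and for the series, start, end and a q-value of each site, called with PeakSeq on WormBase WS180 per the file headers. PeakSeq's version, the aligner, filters, the input used and the way of combining replicates are not given in the sources used. Read depth is therefore unknown, and values of the 2 input samples were not analysed here. Overlap was at least 1 bp. The span of a chromosome was its highest site end in any list. Shares were compared between IV and the other chromosomes with two-sided Fisher's exact tests, adjusted by Benjamini-Hochberg over 6 tests, with Wilson and Newcombe 95% intervals, which cover counting error only. An alternative's p was adjusted with the other 5 main tests, and not over all 41 alternatives. Loci were chains of overlapping replicate sites. Sites named were the 10 strongest, the 5 strongest in neither list, the 5 widest and narrowest, replicate sites without a combined site, the 5 most unequal loci each way, the 5 largest groups and the extreme bins, plus a few chosen after their values were seen. Chromosome, comparisons and windows were chosen with earlier results of these data known. Overlap, grouping and neighbour calls were tested on simulated lists. Python 3.11.15, numpy 2.4.6, scipy 1.17.1, pandas 2.3.3 and matplotlib 3.10.9 were used.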

Additional observations from a re-analysis of the deposited data

How the results depend on the processing

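Of 41 alternatives to the 6 share comparisons, 29 kept their direction and side of the 0.05 threshold. Another 5 passed where the main comparison did not, and 7 turned direction, of which 1 passed. No main comparison passed, so the 29 did not pass either. An overlap of at least 50% gave the same counts as the main setting for combined sites in both lists. No p-value was adjusted over all 41. The alternatives that take a replicate list with sites within 20 kb counted once, or with only q under 1e-10, were chosen after the data were seen. With midpoints within 100 bp, 13.4% of IV sites and 12.6% of sites elsewhere were in both lists, which turned direction. With replicate 1 left out, the share in the other list was 39.8% on IV and 40.5% elsewhere. With replicate 2 left out, it was 33.9% and 36.7%. For replicate 1 partners, q under 1e-05 gave 80.0% and passed. For replicate 2 partners, q under 1e-10 gave 100.0% on IV and 98.0% elsewhere and turned direction. The share of sites with q under 1e-10 passed in the replicate 2 list, with 16.7%, and was lower on IV in all 7 alternatives, though by -0.53 points only with a limit of 1e-05 (71.0% on IV and 71.5% elsewhere, Fisher's exact p = 0.847). The share in the centre passed with q under 1e-05 (56.4%), in the replicate 1 list (53.5%) and with a centre from 33 to 67% (41.1%), and was lower on IV in all 8, but passed in no list with sites within 20 kb counted once (54.6% in replicate 2). Neighbours turned direction at q under 1e-10 (16.7%, which passed), in the replicate 1 list (35.2%), the replicate 2 list (33.3%), within 1 kb (26.6%) and in the replicate 2 list at q under 1e-10 (7.69%). The causes were not tested. With sites within 20 kb counted once, the groups found in both lists and those with q under 1e-10 were equally many on IV, 70 of 178 each, though only 58 groups held both. The density of IV was 10.2 groups per Mb once grouped. The ratio of densities inside and outside the 21U-RNA windows was 0.674, and 0.602 in replicate 1, 0.637 in replicate 2, 0.647 once grouped and 0.818 with windows widened by 0.5 Mb. Spearman's rho between replicates was 0.703 without the 5 strongest loci. No paired analysis was possible because the replicate numbers tie ChIP to input DNA, whose values were not analysed here. Within replicates 1 and 2 the share with q under 1e-10 differed by -9.98 and -13.8 points between IV and the rest. With depth unknown, a weak site in 1 list is not shown to be absent from the other sample.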

Other observations

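Some sites of IV, picked after their values were seen, had much lower q in the combined list than in a replicate list. The strongest combined site held by replicate 2 alone on any chromosome was on IV, from 5561398 to 5564257, with q = 5.99e-22 over 2860 bp. Replicate 2 had 2 sites beneath it, the stronger with q = 3.22e-05, and replicate 1 had none. The strongest held by replicate 1 alone on IV, from 2314358 to 2315546, had q = 3.95e-13 in the combined list and 1.04e-05 in replicate 1. Of replicate 1 sites on all chromosomes without a replicate 2 partner, the 2 strongest were on IV, from 2603617 to 2604777 with q = 8.94e-11 and from 2307466 to 2308128 with q = 1.89e-09. The first of these lies under the eighth strongest combined site of IV. That combined site also holds a replicate 2 site, from 2601841 to 2603521 with q = 2.71e-33. The stretch was therefore not without a replicate 2 site, although the piece had no partner.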
